A study of Homo sapiens with 2 samples.

Results

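The genes described here are 6 genome maintenance genes with a CREB peak at or near their start: RFC3, TOP2B, CDCA5, GTF2H3, PPM1D and SIVA1. They were taken by symbol from the authors' table, which pairs peaks with transcription start sites (TSS) within 50 kb, and each was paired with the peak whose summit, the peak's highest point, lay nearest to its TSS. They are 6 of 2495 symbols in that table, and 6 of 265 protein-coding genes with a promoter peak, meaning a summit within 1 kb of the TSS (1.33% of 19974 protein-coding genes). The genes were chosen by the called peaks and their distance to the TSS in these same data, so the presence of those peaks is no finding. The data came from NGP, an established human neuroblastoma cell line, grown with 20% serum and harvested without any treatment at 80 to 90% confluency. Chromatin immunoprecipitation and sequencing (ChIP-seq) with an antibody against CREB gave 1 ChIP library, and DNA not immunoprecipitated gave 1 input library. The processed files described the ChIP library's peaks, 5285 in all. With no replicate of either library, no value has an error between cultures, and expression was not measured.

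CREB is a transcription factor that is phosphorylated when cAMP or calcium rises in the cell. It binds the cAMP response element (CRE), a palindrome read TGACGTCA on both strands, and less tightly the core TGACG or its reverse complement CGTCA. CREB is known to occupy such sites mostly near gene starts, where their CG is free of methylation. Genome maintenance covers the copying of DNA, the untangling and pairing of the copies, the repair of damage and the signals sent by damage that is not repaired. In neuroblastoma, the chromosome arm that carries PPM1D is commonly gained.

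The letters under each summit were not used to choose the genes, and they show where the peaks lie relative to CRE sites. RefSeq gave a promoter window for all 6 genes (GRCh38.p14, the build of the files being hg38). Shown are the 250 bases before the RefSeq start of each gene, read 5′ to 3′ on the gene's own strand, with full CREs and cores in capitals. They span chr13:33817899-33818148 (plus strand), chr3:25664908-25665157 (minus strand), chr11:65084041-65084290 (minus strand), chr12:123633579-123633828 (plus strand), chr17:60599943-60600192 (plus strand) and chr14:104752897-104753146 (plus strand).
RFC3: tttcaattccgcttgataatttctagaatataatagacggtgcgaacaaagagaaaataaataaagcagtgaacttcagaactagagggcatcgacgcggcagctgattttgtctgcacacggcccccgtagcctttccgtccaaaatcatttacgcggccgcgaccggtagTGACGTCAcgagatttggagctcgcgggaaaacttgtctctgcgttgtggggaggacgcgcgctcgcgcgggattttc
TOP2B: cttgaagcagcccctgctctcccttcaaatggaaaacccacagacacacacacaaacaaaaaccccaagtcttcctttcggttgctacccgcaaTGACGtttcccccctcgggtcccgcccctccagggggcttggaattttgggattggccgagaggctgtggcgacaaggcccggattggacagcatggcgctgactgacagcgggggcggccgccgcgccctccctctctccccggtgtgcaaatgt
CDCA5: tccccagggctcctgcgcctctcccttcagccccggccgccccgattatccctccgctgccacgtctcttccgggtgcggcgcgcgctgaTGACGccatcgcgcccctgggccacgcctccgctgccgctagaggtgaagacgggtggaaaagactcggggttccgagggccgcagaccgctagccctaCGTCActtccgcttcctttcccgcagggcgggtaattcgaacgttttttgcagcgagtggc
GTF2H3: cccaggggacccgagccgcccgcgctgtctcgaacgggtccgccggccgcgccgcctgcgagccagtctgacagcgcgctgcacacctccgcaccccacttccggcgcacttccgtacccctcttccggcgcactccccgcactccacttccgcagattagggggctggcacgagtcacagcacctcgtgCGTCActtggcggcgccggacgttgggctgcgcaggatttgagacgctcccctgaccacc
PPM1D: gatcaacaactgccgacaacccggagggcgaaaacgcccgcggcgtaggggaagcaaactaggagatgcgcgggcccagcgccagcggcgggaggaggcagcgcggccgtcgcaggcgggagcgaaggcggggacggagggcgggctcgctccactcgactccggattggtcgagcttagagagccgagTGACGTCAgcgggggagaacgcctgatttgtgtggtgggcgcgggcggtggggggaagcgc
SIVA1: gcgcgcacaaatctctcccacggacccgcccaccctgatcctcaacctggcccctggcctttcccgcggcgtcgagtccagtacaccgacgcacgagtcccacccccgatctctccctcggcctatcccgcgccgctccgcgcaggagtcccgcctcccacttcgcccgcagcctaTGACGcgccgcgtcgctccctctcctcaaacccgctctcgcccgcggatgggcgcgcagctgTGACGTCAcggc

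All 6 promoters held a full CRE or a core, and 3 of the 6, those of RFC3, PPM1D and SIVA1, held the full palindrome. The nearest such site lay 2 to 28 bp from the summit in every gene, measured to the CG within the site. The nearest site was the full CRE in RFC3 and PPM1D and a core alone in TOP2B, CDCA5, GTF2H3 and SIVA1. SIVA1 and CDCA5 each held a second site farther from the summit, 60 bp away in SIVA1 and 105 bp away in CDCA5, where it lay outside the peak.

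**Figure D1:**
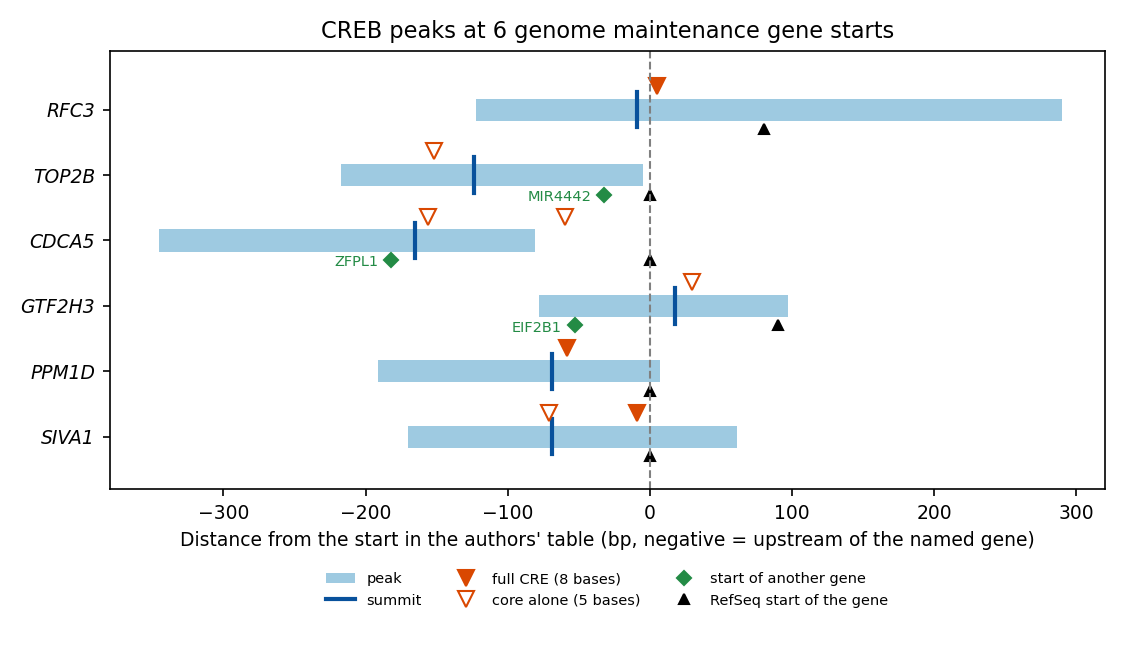
Peaks (bars), summits (vertical lines) and CRE-type sites (triangles pointing down, filled for the full CRE and open for a core) at the 6 genes, by distance in bp from the TSS of the authors' table, with negative values upstream of the named gene. Black triangles mark the RefSeq start and green diamonds the start of another gene; summits lay from 165 bp upstream to 18 bp downstream, each within 28 bp of a site.

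RFC3 encodes a small subunit of replication factor C, the clamp loader that places the PCNA ring on DNA. Its peak spanned positions 33817947 to 33818359 of chromosome 13, was the widest of the 6 at 413 bp, and covered the start of the gene (33818149 to 33977377). The summit, at 33818060, lay 9 bp upstream of the TSS of the authors' table and 89 bp upstream of the RefSeq start, which lies 80 bp farther into the gene. The authors' fold enrichment was 5.62 with a −log10 q of 4.11. Fold is the peak caller's ratio of ChIP fragments to expected fragments at the summit, with 1 added to each. The q is the caller's p-value adjusted for the number of places tested. The RFC3 peak rested on 6 fragments, recovered from its fold and p (95% Poisson interval 2.20 to 13.1), over an expected background of 0.246 fragments. The full CRE lay 14 bp from the summit, just downstream of the TSS in the table but 75 bp upstream of the RefSeq start. RFC3 was the only symbol that the table paired with this peak, and no other RefSeq promoter window used here started within 5 kb of the summit.

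TOP2B encodes topoisomerase II beta, which cuts and rejoins both DNA strands and, unlike its alpha relative, also acts in cells that no longer divide, neurons included. Its gene lies on the minus strand of chromosome 3 (25597905 to 25664907). The peak, at 25664912 to 25665124, ended 5 bp upstream of the TSS, and the summit at 25665031 lay 124 bp upstream. The fold was 8.45 with a −log10 q of 9.08, from 10 fragments (4.80 to 18.4) over a background of 0.302. Its core, TGACG, lay 28 bp from the summit, the farthest among the 6 genes, and no full CRE was in the window. The microRNA gene MIR4442 starts on the same strand, 92 bp from the summit and so nearer to it than TOP2B.

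CDCA5 encodes sororin, which keeps cohesin rings closed around sister chromatids until mitosis. It had the strongest peak of the 6, with a fold of 12.2, a −log10 q of 16.8 and 15 fragments (8.40 to 24.7) over a background of 0.316. The peak spanned 65084121 to 65084385 of chromosome 11, and CDCA5 (65061093 to 65084040) runs away from it on the minus strand. The summit at 65084205 lay 165 bp upstream of the CDCA5 TSS, and the peak's nearest edge was 81 bp away from that TSS. It lay only 17 bp from the start of ZFPL1, a gene of a Golgi zinc finger protein that runs the other way and whose start the peak covered. The 2 starts are 182 bp apart. The peak cannot be assigned to CDCA5 rather than ZFPL1. The nearer core lay 9 bp from the summit and the other, 105 bp away, lay between the peak and the CDCA5 start.

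GTF2H3 encodes a subunit of TFIIH, the complex that opens DNA both for transcription and for nucleotide excision repair. Its gene lies on chromosome 12 (123633829 to 123662604), and the peak at 123633661 to 123633836 covered the TSS of the table and the RefSeq start. This was the weakest of the 6 peaks, with a fold of 5.30, a −log10 q of 3.49 and 6 fragments (2.20 to 13.1) over a background of 0.321. The summit at 123633757 lay 18 bp downstream of the TSS of the table and 72 bp upstream of the RefSeq start. The core CGTCA lay 12 bp from the summit. EIF2B1, which encodes a subunit of a translation initiation exchange factor, lies on the other strand. It starts 53 bp from the GTF2H3 TSS of the table and 71 bp from the summit, and the peak covered its start too. This peak, too, belongs to a start shared by a divergent pair of genes.

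PPM1D encodes WIP1, a phosphatase that switches off DNA damage signals once repair is done. The gene lies on chromosome 17 (60600193 to 60666280). Its peak, at 60600002 to 60600200, covered the TSS, with the summit at 60600124, 69 bp upstream. The fold was 7.43 with a −log10 q of 7.06, from 9 fragments (4.12 to 17.1). The background of 0.346 fragments was the highest of the 6. The full CRE lay 11 bp from the summit. The table paired 1 other symbol with this peak, LINC01999, whose start lay 35578 bp away.

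SIVA1 encodes an apoptosis-linked adaptor that binds the receptor CD27. The gene is short and lies on chromosome 14 (104753147 to 104759654). Its peak, at 104752977 to 104753208, covered the TSS, with the summit at 104753078, also 69 bp upstream. The fold was 8.83 with a −log10 q of 9.99, from 10 fragments (4.80 to 18.4) over a background of 0.246. A core lay 2 bp from the summit, closer than at any other of the 6 genes, and the full CRE lay 60 bp from it, 9 bp before the TSS. No other listed gene started within 1 kb, and the nearest, ADSS1, started 28849 bp from the summit.

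**Figure D2:**
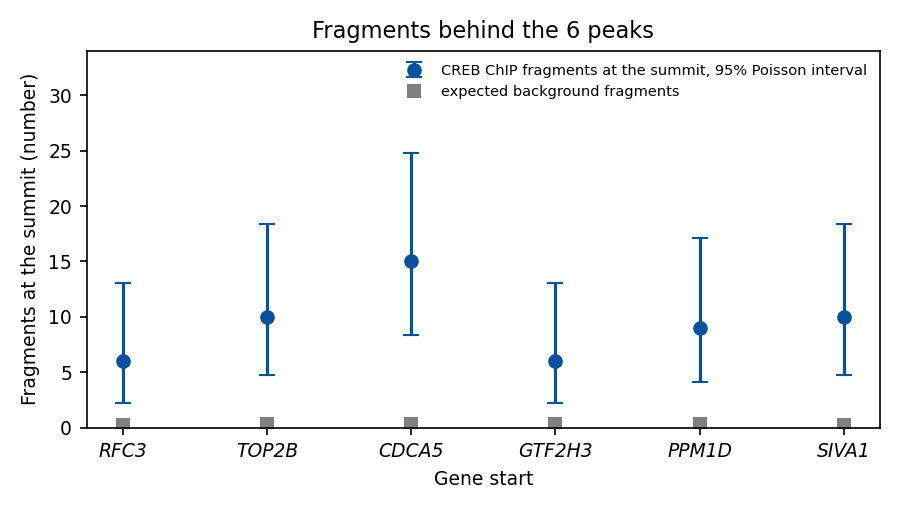
Number of ChIP fragments at the summit of each of the 6 peaks (circles, with exact 95% Poisson intervals) and the number the peak caller expected there (squares). Fragments ranged from 6 at RFC3 and GTF2H3 to 15 at CDCA5, each over a background of at most 0.346 fragments, and the intervals of all 6 overlap.

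By fold the 6 peaks stood at ranks 10 (CDCA5), 22 (SIVA1), 28 (TOP2B), 45 (PPM1D), 96 (RFC3) and 134 (GTF2H3) among 222 promoter peaks. Their median fold was 7.94 and the median over all promoter peaks was 5.61 (quartiles 4.82 to 7.22). CDCA5, SIVA1, TOP2B and PPM1D lay above the upper quartile, RFC3 close to the median and GTF2H3 below it. The 222 peaks include these 6, whose genes were chosen with earlier results of these data known. The ranks are therefore a description only. The Poisson intervals on fragments overlapped among all 6 peaks. Overlap of intervals is no test of a difference, the order of the peaks was not tested, and none is read from it. Without molecular identifiers, such intervals describe counting error and nothing else. Expected backgrounds ran from 0.246 to 0.346 fragments, and 2 of the 6, at RFC3 and SIVA1, were at 0.246, the commonest value in the list.

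**Figure D3:**
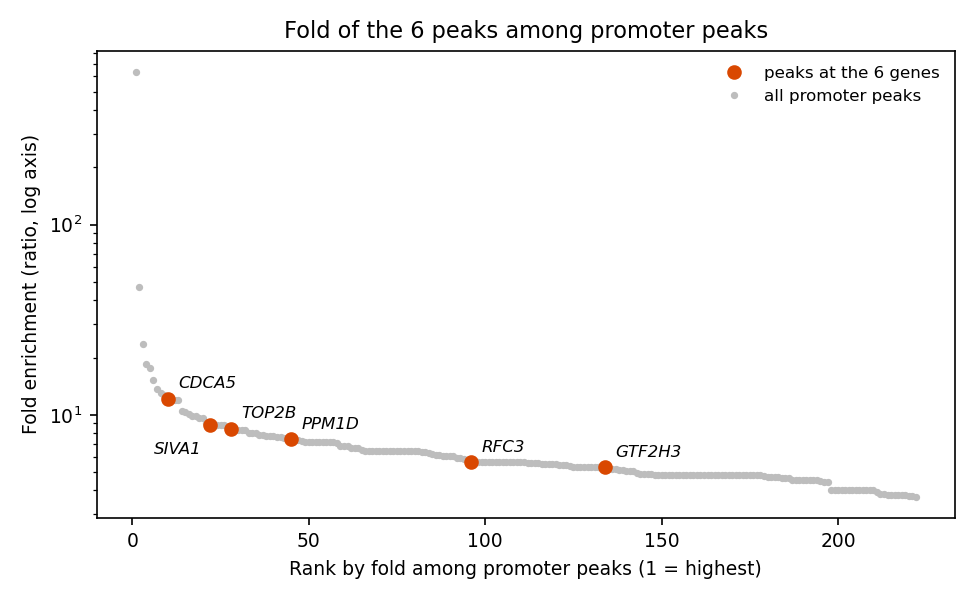
Fold enrichment (ratio, log axis) of the 222 promoter peaks in order of rank, with the peaks at the 6 genes in orange. CDCA5 (12.2), SIVA1 (8.83), TOP2B (8.45) and PPM1D (7.43) lie in the upper part, RFC3 (5.62) and GTF2H3 (5.30) on the long flat part of the curve.

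The summits lay 9 to 165 bp from the TSS of the table (median 69 bp), and 5 of the 6 lay upstream. Since the genes were chosen by this distance, it is given as a description only. No member had more than 1 peak within 50 kb of its TSS. The chromosomes were cut into fixed bins of 1 Mb, and the bins with the members' summits held 1 to 3 peaks each. None of the 6 thus lay in a bin as dense as 10 peaks. The divergent gene pairs CDCA5 with ZFPL1 and GTF2H3 with EIF2B1 each shared a peak. Of all promoter peaks, 17.6% lay within 1 kb of more than 1 protein-coding TSS, in any orientation. RFC3, PPM1D and SIVA1 had no other listed start within 1 kb.

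The share of promoters with CRE letters was then set beside that in other promoters. A full CRE was present in 3 of the 6 windows of 300 bases (50%, exact Clopper-Pearson 95% interval 11.8 to 88.2), running from 250 bases before the start to 50 after. It was present in 57 of the 153 protein-coding windows that held any summit (37.3%, interval 29.6 to 45.4) and in 443 of the 22003 that held none (2.01%, interval 1.83 to 2.21). A core, alone or within a full CRE, was present in all 6 members, in 89.5% of windows with a summit and in 27.4% of windows without. The 6 windows are among the 153, and windows of divergent genes overlap, so these intervals are too narrow. Over all protein-coding windows the full CRE had a share of 2.26% and the core 27.9%.

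The members' base composition was then considered. GC content was 53% in the RFC3 window and 62.3 to 72.0% in the other 5, against a median of 62.3% over protein-coding windows. Within the members' GC range, 2.78% of 12380 protein-coding windows held a full CRE and 32.4% a core. These windows had a median GC content of 63.3% and a median of 22 CG, against 69.5% and 35.5 in the members. The range thus did not match the members' composition. The GC box GGGCGG, bound by SP-family factors, was present in all members except RFC3 (83.3%), in 62.7% of windows with a summit and in 56.2% of those without. The CCAAT box, bound by NF-Y, was present in TOP2B and PPM1D (33.3%), in 42.5% of windows with a summit and in 34.6% of those without. Both motifs were searched on both strands and were added after the sequences had been seen. A match is a description of the letters and not a measured site.

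**Figure D4:**
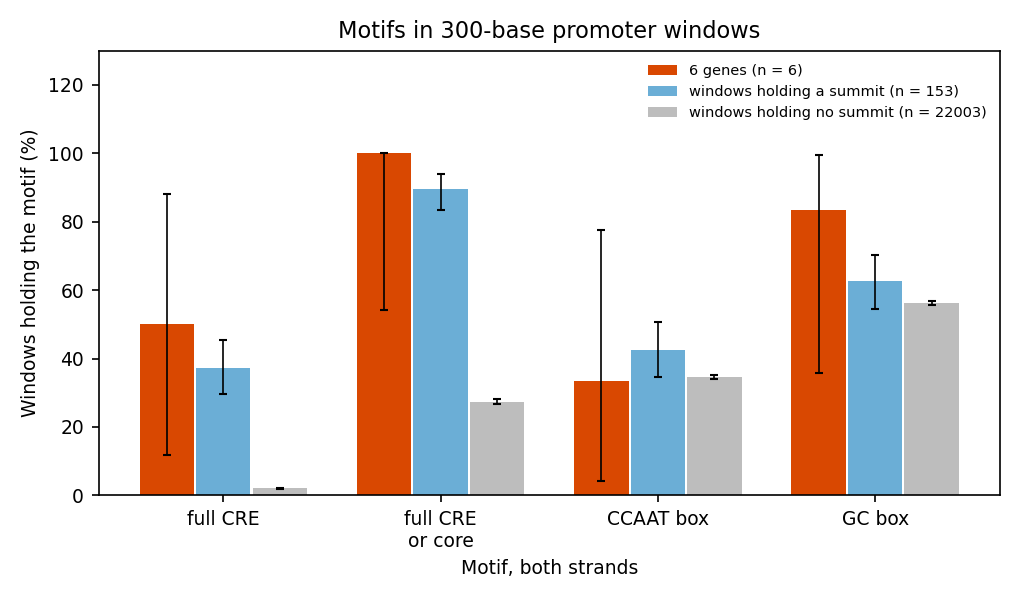
Percentage of 300-base promoter windows that hold each motif, for the 6 genes, for all protein-coding windows with a summit (which include the 6) and for those without; bars show exact 95% binomial intervals. The full CRE stands at 50%, 37.3% and 2.01% in these sets, the CCAAT box at 33.3%, 42.5% and 34.6%, and the GC box at 83.3%, 62.7% and 56.2%.

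Over the 6 peaks, the median distance to the nearest full CRE or core was 11.5 bp. Of the 116 other peaks with a summit in a protein-coding window, 105 had a site in that window, inside the peak or not. Their median distance was 40 bp (quartiles 16 to 63, range 1 to 154). The members' distances of 2 to 28 bp thus lay within the range of the others, and the difference was not tested. Among the members the median fold was 7.43 with a full CRE and 8.45 without, and among the other peaks it was 6.08 with one and 5.62 without. The members' values rest on 3 genes each and on few fragments, so no order is read from them.

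**Figure D5:**
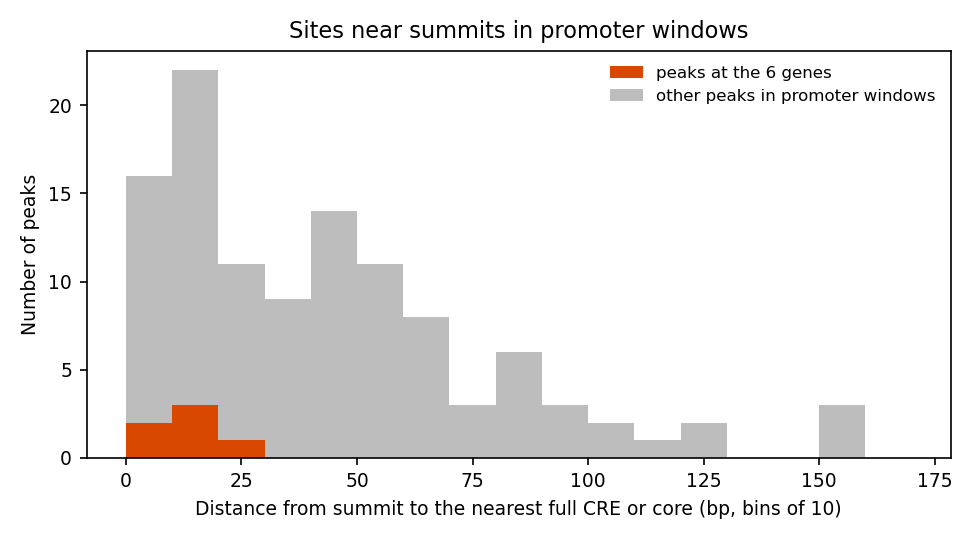
Distance in bp from each promoter-window summit to the nearest full CRE or core in the window, in bins of 10 bp. The 6 genes (orange) are stacked under the other peaks with a site in the window (grey). The 6 lie between 2 and 28 bp, and the other 105 peaks between 1 and 154 bp.

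The partners of these genes were examined through 7 lists with 147 genes in all, the members included. Beside the 6 members, 1 of the other 141 genes had a promoter peak (0.709%), against 1.33% of all protein-coding genes. That gene was PARP2, a DNA repair enzyme of the poly(ADP-ribose) polymerase family, with a fold of 23.5 from 29 fragments (19.4 to 41.6) and a full CRE 32 bp from the summit. Its peak is shared with RPPH1, the RNA of RNase P. Within 50 kb, 12 of the other 141 genes had a peak (8.51%), against 8.47% of all protein-coding genes. The members, chosen for their peaks, were left out of the list shares but not of the shares over all protein-coding genes. With them, 7 of the 147 list genes had a promoter peak. None of these counts is a result about the lists.

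Among clamp loader and clamp genes, RFC1, RFC2, RFC4 and RFC5 had no peak within 50 kb. PCNA, the clamp itself, had one 13541 bp downstream of its TSS (fold 4.90). That peak was among the 222 promoter peaks, with its summit within 1 kb of another protein-coding TSS, so it cannot be assigned to PCNA. No other topoisomerase gene of the list, TOP2A and TOP1 included, had a peak within 50 kb. Of the other 17 cohesin and cohesion genes, PTTG1, the securin gene, had a peak 25257 bp upstream (4.63). In the TFIIH and excision repair list, ERCC1 (5619 bp upstream, fold 4.11), ERCC3 (7195 bp, 4.01) and ERCC4 (21151 bp, 3.80) were the nearest. GTF2H2 had a peak 22885 bp upstream, but this gene has near-identical copies, so that pairing is uncertain. In the damage signalling list, TP53BP1, a repair scaffold, had a peak 17460 bp downstream (7.22), and MDM2 had none within 50 kb.

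The remaining lists held no member. Of 33 replication origin and fork genes, POLD1 and GINS2 had peaks 47404 bp downstream (fold 6.42) and 48869 bp upstream (4.56), close to the 50 kb limit of the table. Of 24 recombination and end joining genes, RAD52 had a peak 30747 bp upstream (3.80). The peaks named here that lay more than 1 kb from the TSS of their list gene had folds below 5, other than those of TP53BP1 and POLD1. Those folds below 5 were under those of all 6 members.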

How the data were processed

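The submitters' processing notes name Bowtie2, MACS2 and build hg38. Their versions, settings and handling of duplicate reads are not stated there. The deposited peak list gives, for each of 5285 peaks, a fold enrichment over background as a ratio, −log10 p and −log10 q values and a score that is 10 times the −log10 q cut to a whole number. Its smallest −log10 q is 1.32. The table deposited by the authors pairs 2495 symbols with peaks within 50 kb, in 4780 pairs, and 1692 symbols matched a RefSeq protein-coding gene. Fold and q are the authors' and only describe or rank peaks of this list.

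Fragment numbers were recovered by solving fold = (fragments + 1) / (background + 1) together with the upper Poisson tail for p. A whole number met the −log10 p within 0.001, or within a relative 1e-05 above 100, in 5285 of 5285 peaks. The recovery and the motif search were tested on simulated data. Promoter windows (35116, GRCh38.p14) and gene positions came from RefSeq; exons and UTRs were not assigned. No significance test was run, since there was 1 ChIP library. The members and gene lists were chosen with earlier results of these data known. Named were the members, genes with a start within 1 kb of a member's summit, list genes with a promoter peak and up to 3 per list with a peak within 50 kb; RFC1, RFC2, RFC4, RFC5, TOP1, TOP2A, GTF2H2, MDM2, ADSS1, LINC01999 and the genes of the closing section were chosen after their values were seen. Some list genes that the rule would name are not reported here. Python 3.11.15, pandas 2.3.3 and scipy 1.17.1 were used.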

Additional observations from a re-analysis of the deposited data

How the results depend on the processing

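All 6 members kept a promoter peak at distances of 200 bp, 500 bp and 5 kb. That outcome was fixed by the choice of genes, whose summits lay at most 165 bp from the TSS. All 6 also remained at a −log10 q of at least 3, at a fold of at least 5 and with the RefSeq start as TSS. Their lowest −log10 q was 3.49 and their lowest fold 5.30, just above the limits of 3 and 5. At a −log10 q of at least 5, 4 remained and RFC3 and GTF2H3 were lost. Protein-coding genes with a promoter peak, 265 in the main count, numbered 173 at a −log10 q of at least 3 and 106 at 5. They numbered 174 at a fold of at least 5, since fewer peaks then counted. The members' median distance of 69 bp became 0 bp from the nearest peak edge and 80.5 bp from the RefSeq start. Without the pseudocount, 0 of the 6 fragment numbers were recovered. With the full palindrome alone, 3 of the 6 promoters held a site. Depth limits the order of the peaks, which rested on 6 to 15 fragments.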

Other observations

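CRE letters were also read in the promoters of the other listed genes. Apart from the members, which were chosen for their peaks, 6 list genes held a full CRE in a promoter window used here, and 1 of these, PARP2, had a promoter peak. The other 5 were RFC1, the large clamp loader subunit, MCM10, a replication initiation factor, and the repair genes RAD51C, XRCC2 and LIG4. With the members counted, 4 of 9 list genes with a full CRE had a promoter peak. Over all protein-coding genes with a window, members included, 63 of 474 with a full CRE had a promoter peak (13.3%). Without a full CRE, 149 of 15339 had one (0.971%). Of the 122 list genes other than the members with such a window, 52 held a full CRE or core and 1 of these, PARP2, had a promoter peak. Of all protein-coding windows, 6173 held a full CRE or core, and 137 of these held a summit. That measure counts windows and is narrower than a promoter peak. The members were left out for their peaks, so these list counts are no result about the lists. With a median of 6 fragments at a summit, a promoter without a called peak is not shown to lack CREB.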
